A study of Mus musculus with 17 samples.

Results

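Lungs of mice that lack the mouse PPARα gene (PPARα KO, here KO) were compared after perfluorooctanoic acid (PFOA) and after vehicle in the drinking water. The comparison takes the libraries whose titles give the KO genotype, which are 6 of the 17 in the series: 3 on PFOA (animals 52, 154 and 155) and 3 on vehicle (animals 137, 145 and 149). All 6 mice were female, were 6 weeks old at the start, ate a custom diet modelled on what adults in America eat, and drank sucrose water without PFOA or with 6.2 µg/mL PFOA (labelled Hi-PFOA) for 14 weeks. The other 11 libraries came from wildtype Sv/129 mice (WT, 2 on vehicle and 3 on PFOA) and from mice with human in place of mouse PPARα (hPPARa KI, here KI, 3 and 3), of both sexes. KO and KI mice came from breeding pairs that carried the null and the human alleles, whereas WT mice were purchased, so the null allele is shared by PFOA and vehicle mice and the WT mice are not littermates. RNA was taken from whole frozen lung, in which fewer cells of a type and less RNA per cell cannot be told apart.

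PFOA is a perfluorinated carboxylic acid with the shape of a fatty acid that persists in the body and activates PPARα, a nuclear receptor that pairs with RXR and switches on fatty acid uptake and oxidation. In liver this receptor carries a large share of the response to PFOA, and other receptors such as CAR, PXR and PPARγ carry more of it where PPARα is absent. The KO comparison therefore asks what PFOA does to lung gene expression without PPARα, where lipid metabolism serves surfactant made by alveolar type 2 cells and where resident and circulating leukocytes add to the RNA.

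The KO libraries held 4116118 to 9237356 estimated counts, so that 3 counts were worth 0.325 to 0.729 per 1000000 counts. Gene levels are given in CPM, counts of a gene per 1000000 counts of its library, with library totals scaled by TMM factors. On that scale the level of 3 counts differs somewhat from the range above, which used unscaled totals. Vehicle 137 stood apart. It had the lowest total, 61.3% of its counts lay in protein-coding genes against 76.6% to 78.8% in the other 5 KO libraries, and of the 26946 genes tested 38.6% had their highest KO value in it, against 9.68% to 15.2% in each of the others. Ribosomal RNA genes took 7.76% of its counts against 1.54% to 3.58%, and mitochondrial ribosomal RNA 12.5% against 5.44% to 6.76%. Counts and log2 fold changes without vehicle 137 are therefore given beside results that it moved. A code in the deposited column names is i501 for all 3 PFOA libraries and another code for all 3 vehicle libraries. What it stands for is not stated, and within KO it cannot be told apart from exposure. The lung markers of the samples were present in all 6 libraries: the summed level of 10 lung identity genes was 10003 CPM in vehicle 137, 13855 and 15468 CPM in vehicle 145 and 149, and 12344 to 14919 CPM on PFOA.

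**Figure D1:**
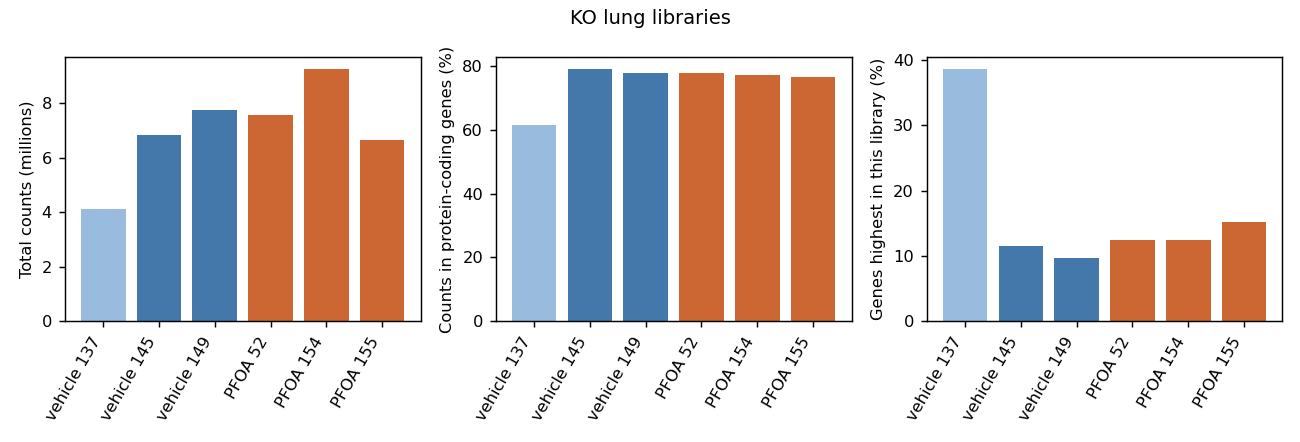
Bars give, for each of the 6 KO lung libraries, the total of estimated counts, the percent of counts in protein-coding genes and the percent of the 26946 tested genes whose highest KO value lay in that library. Vehicle 137 has the lowest total, the lowest protein-coding share (61.3%) and the highest share of genes at their maximum (38.6%).

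The transcript of the deleted gene did not set the KO libraries apart. Ppara was at 11.7, 10.3 and 9.17 CPM in vehicle 137, 145 and 149 and at 10.1, 11.3 and 8.82 CPM in PFOA 52, 154 and 155, while the 11 libraries of the other genotypes ranged from 4.39 to 20.4 CPM. The KO values thus lie inside the range of mice that carry a receptor gene. A count summed over a whole gene cannot check an allele that removes part of it, and the genotype rests on the titles. Between PFOA and vehicle the log2 fold change of Ppara was -0.03 (SE 0.25, edgeR), with overlapping groups. Of the 12 PPAR and RXR genes and partners tested, 0 had an unadjusted p under 0.05. Pparg, the receptor of fat cells and alveolar macrophages, was at 5.27 to 7.46 CPM on vehicle and 5.86 to 9.70 CPM on PFOA, and Ppard, the third receptor of the family, at 22.3 to 27.6 CPM and 26.8 to 31.6 CPM.

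Over all genes no difference between PFOA and vehicle in KO lung passed the test. edgeR's quasi-likelihood test over all 17 libraries called 0 of 26946 genes (0%) when the threshold was a fold of 2 and a Benjamini-Hochberg adjusted p of 0.2, and the smallest adjusted p was 0.434. At an unadjusted p under 0.05 it picked 2639 genes (9.79%), of which 1007 (3.74%) were higher and 1632 (6.06%) lower on PFOA. Without vehicle 137 the call count was again 0, with 1102 genes (4.09%) at an unadjusted p under 0.05, of which 727 (2.7%) were higher and 375 (1.39%) lower, so the share of higher genes went from 38.2% to 66.0%. Upper-quartile in place of TMM scaling gave 614 higher and 2256 lower genes, a share of 21.4%, with all genes shifted by a median of -0.14 on the log2 scale against -0.03. With DESeq2 the calls over these genes came to 68 (0.252%), of which 38 (0.141%) were higher and 30 (0.111%) lower, and without vehicle 137 it called 11 (0.0408%), all higher. In what follows, picked means an edgeR unadjusted p under 0.05, a description to be read against these background shares, and a gene is said to have changed only where DESeq2 called it. The titles give animal numbers and nothing more on how the samples were taken, so these p-values measure only the spread between samples, which the fit pooled over all 17 libraries, and an exact permutation test of 3 against 3 cannot go below p = 0.1.

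The 2 directions differed in how far they rested on vehicle 137. Of the 1632 lower genes 1472 (90.2%) had their highest KO value in that library, their median level was 0.603 CPM, 927 (56.8%) were protein-coding, and 261 were again picked in the same direction without it. Of the 1007 higher genes 770 (76.5%) had their lowest value in vehicle 137, but 810 (80.4%) were protein-coding, their median level was 20.4 CPM, and 465 were again picked without it. The median log2 fold change of the lower genes went from -3.11 to -0.95 when vehicle 137 was left out, and that of the higher genes from 0.63 to 0.48. All 38 genes called higher by DESeq2 were picked by edgeR in the same direction without vehicle 137, where DESeq2 itself still called 6 of them (Gm2682, Mfsd2a, Ms4a4b, Slfn1, Slfn4 and Tlr13). Of the 30 called lower by DESeq2, 28 had their highest value in vehicle 137, 16 were picked by edgeR without it, and DESeq2 then called 0. For every other gene that is said below to have changed in KO, the DESeq2 call was lost without vehicle 137.

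Most of the genes with the strongest evidence for higher levels on PFOA were genes of leukocytes. Values are given below in the order vehicle 137, 145 and 149 and PFOA 52, 154 and 155. Tlr13, an endosomal sensor of bacterial ribosomal RNA in myeloid cells (chrX:106143204-106160493, mm10, plus strand), was at 2.76, 4.36 and 5.02 CPM on vehicle and at 13.3, 10.9 and 10.9 CPM on PFOA. The lowest PFOA library was above the highest vehicle library by more than the range within either group. Its log2 fold change was 1.49 (SE 0.26), the smallest p of all genes (1.8e-05 before and 0.434 after Benjamini-Hochberg adjustment in edgeR), and 1.31 without vehicle 137. With DESeq2 its adjusted p was 0.0272, and it was the only gene (0.00371%) past an adjusted p under 0.05 together with a fold over 2.

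Slfn1, a Schlafen gene tied to quiescence of T cells (chr11:83116849-83122670, mm10, plus strand), was at 5.76, 3.38 and 4.27 CPM on vehicle and at 20.9, 9.48 and 15.4 CPM on PFOA. The PFOA libraries were all above the vehicle libraries but were spread more widely. The log2 fold change was 1.79 (SE 0.35), or 1.98 without vehicle 137, and Slfn1 changed by DESeq2 both with vehicle 137 (adjusted p = 0.0715) and without it (adjusted p = 0.0407). Its neighbour Slfn4, which is induced in myeloid cells, was at 9.67, 4.08 and 5.02 CPM on vehicle and at 40.0, 11.9 and 17.2 CPM on PFOA, a log2 fold change of 1.92 (SE 0.46). PFOA 52 was the highest library for both genes.

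Ms4a6c, a membrane protein gene of monocytes, was at 0.691, 3.80 and 3.26 CPM on vehicle, the first of which is at the level of 3 counts, and at 13.6, 6.60 and 10.8 CPM on PFOA. Ms4a4b, a membrane protein gene of T cells, was at 8.06, 6.90 and 10.3 CPM on vehicle and at 19.4, 16.6 and 29.0 CPM on PFOA. Neither gene's groups overlapped, and their log2 fold changes of 1.90 and 1.35 were 1.54 and 1.32 without vehicle 137. Gzma, a granule protease of NK and cytotoxic T cells, was at 2.99, 5.77 and 6.53 CPM on vehicle and 16.1, 12.4 and 18.4 CPM on PFOA (log2 fold change 1.57, SE 0.34), and its DESeq2 adjusted p went from 0.107 to 0.440 without vehicle 137. That of Ms4a6c went from 0.0715 to 0.297. Cd200, a glycoprotein that restrains myeloid cells, was at 46.1, 55.6 and 58.0 CPM on vehicle and at 100.2, 85.2 and 93.3 CPM on PFOA. Its groups were tight and well apart, yet the difference of 0.80 on the log2 scale (SE 0.16) is under a fold of 2, so it was not called although its DESeq2 adjusted p was 0.0272.

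Mfsd2a, a carrier of lysophosphatidylcholine that supplies surfactant lipid in alveolar type 2 cells, was also among the leading higher genes. It was at 3.46, 1.83 and 3.01 CPM on vehicle and at 7.18, 9.48 and 9.12 CPM on PFOA, with a log2 fold change of 1.65 (SE 0.38), 1.81 without vehicle 137, and DESeq2 adjusted p-values of 0.139 and 0.149. The other 4 of the 12 protein-coding genes ranked highest by the larger of their p-values with and without vehicle 137 were Satb1, a chromatin organizer of thymocytes, Fyb and Sla, adaptors of T cell receptor signalling, and Kbtbd11, a gene of the BTB-kelch family. Their log2 fold changes ranged from 0.68 for Kbtbd11 to 1.10 for Fyb, and all 12 genes had groups that did not overlap, which the ranking required. The 11 genes that DESeq2 called without vehicle 137 included Tlr13, Slfn1, Slfn4, Ms4a4b and Mfsd2a, the noncoding genes Gm2682 and Gm42826, the small nucleolar RNA genes Snord17 and Rnu3b2, and the small nuclear RNA gene Gm23472. Gm2682 differed between the other genotypes whatever the exposure. It was at 0 to 0.491 CPM on vehicle and 0 to 0.257 CPM on PFOA in WT. In KI it was at 11.1 to 15.5 CPM on vehicle and 12.8 to 17.7 CPM on PFOA.

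**Figure D2:**
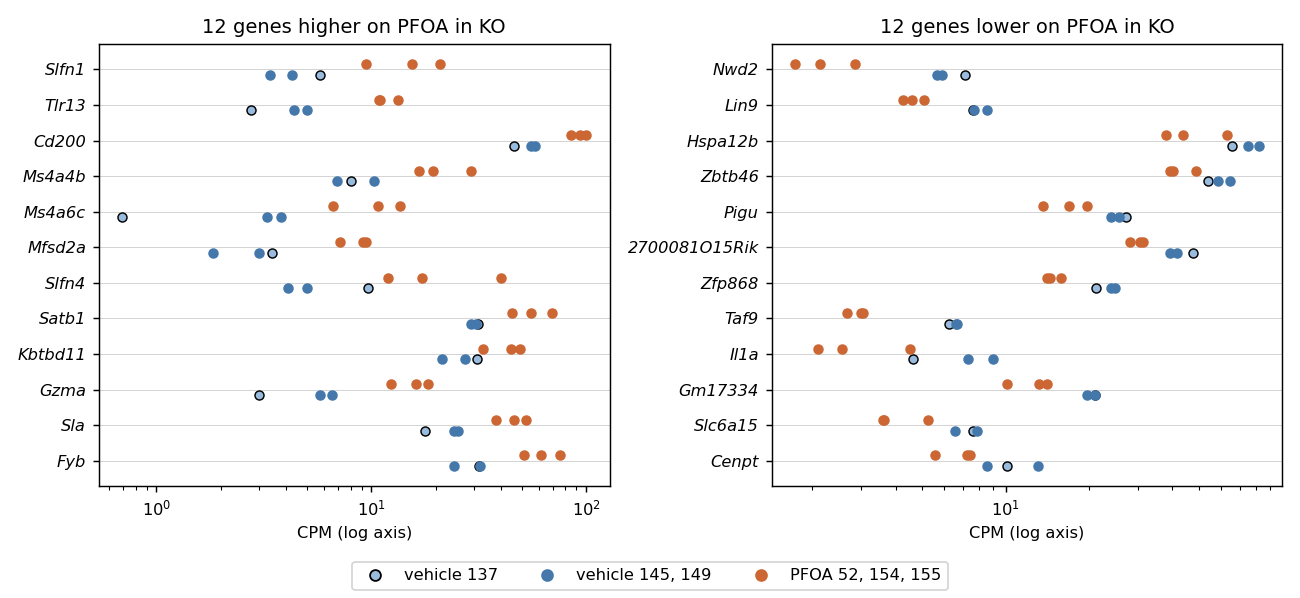
Points give the CPM of each KO library on a log axis for the 12 protein-coding genes ranked highest among those higher and the 12 ranked highest among those lower on PFOA, with vehicle 137 outlined. The ranking required that PFOA and vehicle points do not overlap. Slfn1 spans 3.38 to 5.76 CPM on vehicle and 9.48 to 20.9 CPM on PFOA, while Nwd2 spans 5.63 to 7.14 and 1.73 to 2.84 CPM.

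More than a few markers of lymphocytes were picked. Of the 36 NK and T cell genes tested, 22 (61.1%) were picked higher and 0 lower, where 3.74% of all genes were picked higher, and their median log2 fold change was 0.97 beside -0.03 over all genes. Without vehicle 137 the count was 20 and the median 0.88, and the number picked ranged from 13 to 21 when 1 KO library was left out. In 25 of the 36 the 3 PFOA libraries lay above the 3 vehicle libraries, where 6.82% of all genes did so. Il2rb, the interleukin 2 receptor chain of NK and activated T cells, was at 1.84, 3.52 and 5.90 CPM on vehicle and at 10.6, 8.94 and 13.9 CPM on PFOA, and it and Gzma were the members called by DESeq2, with 0 called without vehicle 137. Trac, the constant part of the T cell receptor alpha chain, was at 0.921, 2.39 and 1.88 CPM on vehicle and 5.71, 4.05 and 5.08 CPM on PFOA. The T cell kinase Lck was at 6.45, 4.08 and 4.52 CPM and at 12.2, 7.77 and 13.9 CPM. None of these 3 genes had overlapping groups. Ncr1, an activating receptor of NK cells, and Prf1, the pore-forming protein of their granules, had log2 fold changes of 1.08 and 1.13. The summed level of the 36 genes was 136, 120 and 144 CPM on vehicle and 253, 213 and 282 CPM on PFOA, against 69.0 to 208 CPM in the 11 libraries of the other genotypes, so the KO PFOA libraries were the 3 highest of the series.

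B and plasma cell genes had a median log2 fold change of 0.89 over 25 genes, with 5 (20%) picked higher (Igkc, Ighm, Spib, Ighd and Jchain) and 0 lower. Igkc, the kappa light chain constant part, was at 5.07, 9.43 and 20.2 CPM on vehicle and at 43.3, 20.5 and 62.8 CPM on PFOA, the lowest PFOA library being next to the highest vehicle library. Ighm, the IgM heavy chain, was at 11.98, 33.1 and 26.7 CPM and at 55.9, 35.0 and 93.2 CPM. PFOA 155 was the highest library for both. Leaving out PFOA 155 reduced the count of picked B and plasma cell genes to 1, and leaving out vehicle 137 reduced it to 2.

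Among 26 monocyte genes 11 (42.3%) were picked higher and 0 lower, with a median log2 fold change of 0.77. In 18 the PFOA libraries lay above the vehicle libraries, where 6.82% of all genes did so. Without vehicle 137, 7 were picked higher, at a median of 0.68. Plac8, a small protein gene of classical monocytes and neutrophils, was at 2.53, 3.52 and 5.15 CPM on vehicle and 13.8, 7.13 and 15.1 CPM on PFOA, and F13a1, a coagulation factor subunit made by monocytes, was at 8.98, 16.3 and 8.41 CPM and at 34.8, 23.7 and 38.0 CPM. Clec4a3, a C-type lectin receptor gene, was at 0.921, 0.844 and 1.51 CPM on vehicle and at 6.78, 4.26 and 4.49 CPM on PFOA. All 3 changed by DESeq2, as did Ms4a6c, and 0 of the 26 genes were called without vehicle 137. The summed level of the list was 956 CPM in vehicle 137, 2848 and 2853 CPM in vehicle 145 and 149 and 3238 to 3474 CPM on PFOA. By sum, then, vehicle 137 was far below all other KO libraries and the gap between PFOA and the other 2 vehicle libraries was narrow.

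Neutrophil genes had the highest median among the leukocyte lists, 1.17 over 17 genes, with 7 (41.2%) picked higher and 0 lower, and the median without vehicle 137 was 1.48 with 8 picked. S100a9, a calcium-binding protein of neutrophil cytosol, was at 0.921, 1.27 and 5.27 CPM on vehicle and 12.4, 10.8 and 11.5 CPM on PFOA. Retnlg, a resistin-like protein gene of circulating neutrophils, was at 0.691, 0.422 and 0.502 CPM on vehicle, close to the level of 3 counts, and at 1.73, 2.66 and 3.29 CPM on PFOA. The gelatinase Mmp9 was at 2.99, 4.08 and 2.76 CPM and at 9.04, 10.5 and 9.42 CPM, and the G-CSF receptor Csf3r at 16.4, 12.8 and 15.3 CPM and at 39.5, 24.1 and 44.7 CPM. In all 4 genes the groups did not overlap, and 0 of the 17 genes was called by DESeq2. Alveolar macrophage genes had a median of 0.48 over 18 genes, with 2 (11.1%) picked higher, Chil3 and Marco, and 0 without vehicle 137.

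Genes that most leukocytes share were among the 38 that DESeq2 called higher, and these were named after their values were seen. Ptprc, which encodes the pan-leukocyte phosphatase CD45, was at 73.2, 147 and 158 CPM on vehicle and at 269, 202 and 333 CPM on PFOA, a log2 fold change of 1.08 (SE 0.29) that was 0.81 without vehicle 137. Genes of leukocyte adhesion changed with it. The integrin chains Itgal and Itgb2, which together form LFA-1, had log2 fold changes of 1.22 and 1.09, and the integrin chain Itga4 had 1.13. Selplg, which encodes the ligand of P-selectin, was at 9.21, 17.2 and 18.3 CPM on vehicle and at 36.7, 25.0 and 36.6 CPM on PFOA. Sialophorin (Spn) had a log2 fold change of 1.36, and the signalling genes Tyrobp, Ptpn6 and Was had 1.45, 1.10 and 1.36. In each of these 9 genes the groups did not overlap and vehicle 137 was the lowest library, and their DESeq2 adjusted p-values were 0.508 to 0.819 without it, while in all but Spn PFOA 154 was the lowest of the PFOA libraries.

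**Figure D3:**
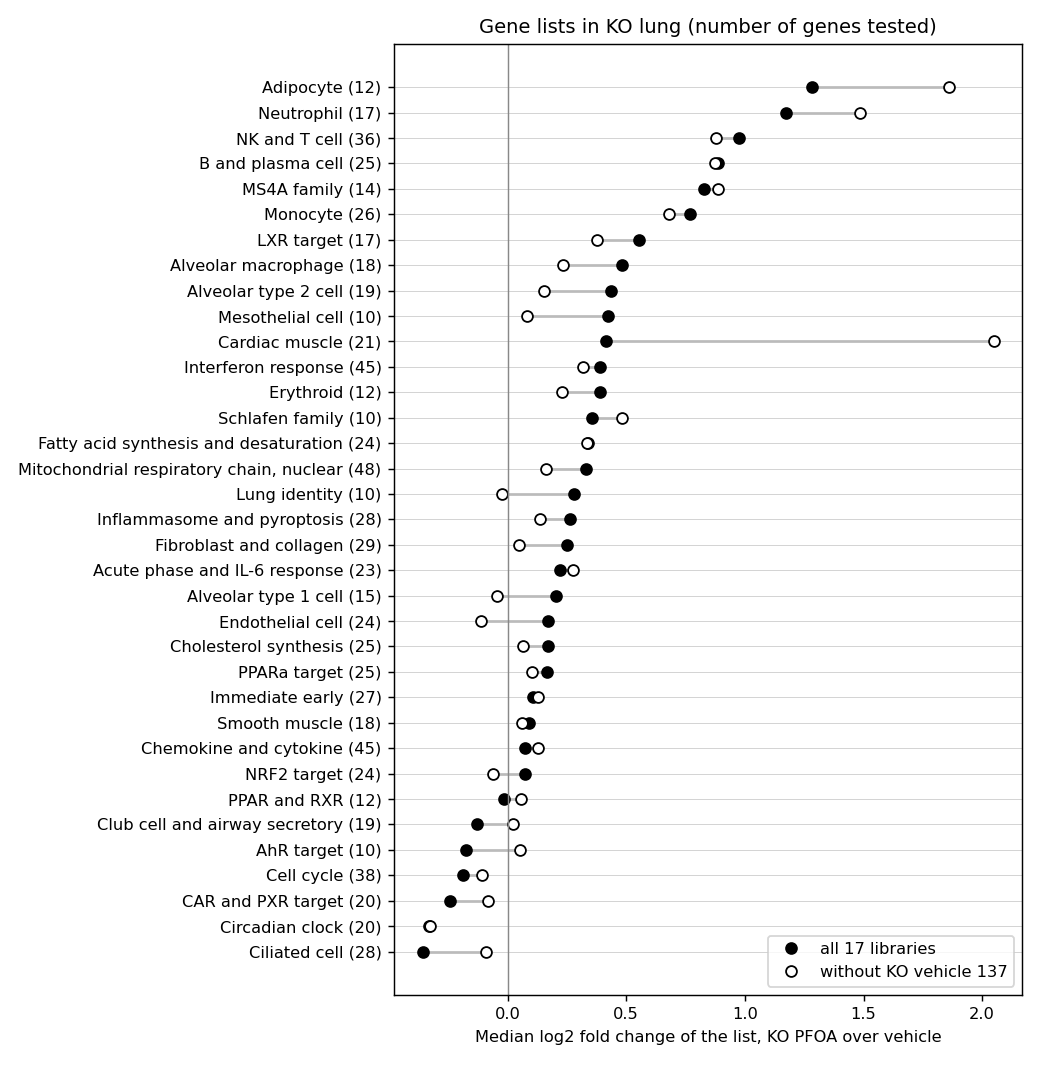
Each filled point is the median log2 fold change (PFOA minus vehicle, KO lung) of the tested genes of 1 list over all libraries, and each open point is the same median without vehicle 137. Neutrophil, NK and T cell, B and plasma cell and monocyte lists lie at 0.77 to 1.17, the circadian clock list at -0.33 with either set, and the cardiac list moves from 0.41 to 2.05.

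Members of 2 families that lie in clusters in the genome were among the genes picked. Of 10 Schlafen genes tested, 4 (40%) were picked higher, namely Slfn1, Slfn2, Slfn4 and Slfn8, and 1 lower, Slfn14, which lay at or near the level of 3 counts outside vehicle 137. Slfn2, which keeps T cells quiescent, was at 20.3, 24.6 and 29.9 CPM on vehicle and at 60.2, 32.7 and 58.3 CPM on PFOA. The 4 genes lie together on chromosome 11, from 83002158 to 83190216 in mm10. Of 14 MS4A genes 4 (28.6%) were picked higher and 0 lower, Ms4a4a, Ms4a4b, Ms4a6b and Ms4a6c, which lie next to each other on chromosome 19. Since members of these clusters resemble each other in sequence, the expectation-maximization counting could have moved reads between them, and single values are uncertain to that extent.

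Interferon-stimulated genes showed small and uneven differences. Of 45 tested, 42 had a log2 fold change above 0, with a median of 0.39, and 7 (15.6%) were picked higher. Ifi204, an interferon-inducible sensor of the p200 family, was at 2.99, 3.52 and 5.02 CPM on vehicle and at 24.8, 6.39 and 13.6 CPM on PFOA, and Ifi27l2a at 1.84, 3.66 and 4.14 CPM and at 20.9, 7.35 and 7.78 CPM. Both changed by DESeq2 (adjusted p = 0.157 each), and without vehicle 137 the adjusted p-values were 0.684 and 0.713. PFOA 52 was the highest library in both, and without PFOA 52 the list had 3 genes picked in place of 7.

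The inflammasome and pyroptosis list, which covers the sensors, adaptors and outputs of interleukin 1 release, had 5 of 28 genes (17.9%) picked higher and 2 (7.14%) lower, the latter close to the 6.06% of all genes, at a median of 0.26. The 2 lower genes were Il1a and Nlrp6, which was at 3.92 CPM in vehicle 137 and at 0 to 0.299 CPM in the other KO libraries. Without vehicle 137 there were 7 higher and 1 lower, at a median of 0.14. Nlrp3, the sensor of the inflammasome of that name, was at 6.45, 4.22 and 4.14 CPM on vehicle and at 8.11, 9.48 and 10.3 CPM on PFOA, a log2 fold change of 0.94 (SE 0.40). Il1b, its cytokine product, was at 5.30, 3.80 and 4.14 CPM and at 10.6, 9.90 and 11.4 CPM. Il1a went the other way, at 4.61, 9.01 and 7.28 CPM on vehicle and 4.52, 2.56 and 2.09 CPM on PFOA, with vehicle 137 next to PFOA 52. None of the 3 was called by edgeR or DESeq2, whose adjusted p-values for Nlrp3 were 0.490 and 0.595. Gas7, a cytoskeletal gene, was at 50.4, 72.2 and 65.3 CPM on vehicle and 90.6, 97.5 and 103 CPM on PFOA. Gas7, Nlrp3, Slfn1 and Ms4a6c were singled out from these same samples before, so they are not independent evidence of a direction. The same holds for Ccl5, Klf2, Lrg1, Mfsd2a, Mylip, Scd1 and Slfn4, which the authors also named from these samples.

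Of the acute phase and IL-6 response list 5 of 23 genes (21.7%) were picked higher and 1 lower. Lrg1, a glycoprotein made by liver, endothelium and neutrophils, was at 15.7, 22.5 and 29.1 CPM on vehicle and at 42.5, 42.6 and 42.2 CPM on PFOA. Lcn2, an iron-scavenging protein, had a log2 fold change of 0.97, and the transcription factor Cebpd was at 41.0, 47.0 and 50.6 CPM on vehicle and at 111, 97.4 and 70.7 CPM on PFOA. Of 45 chemokine and cytokine genes 7 (15.6%) were picked higher and 3 (6.67%) lower, among them Ccl5, a chemokine of NK and T cells, at 1.38, 4.36 and 5.02 CPM and at 10.4, 8.41 and 7.63 CPM, and Ccr7, the homing receptor of naive T cells and dendritic cells, at a log2 fold change of 1.34.

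Some lipid synthesis genes were picked higher on PFOA in lungs without PPARα, and most were not picked. Of 24 genes of fatty acid synthesis and desaturation 7 (29.2%) were picked higher and 0 lower, at a median log2 fold change of 0.34, and 6 to 8 were picked when any 1 KO library was left out. Scd1, the desaturase that makes oleate from stearate (chr19:44394455-44407879, mm10, minus strand), was at 228, 537 and 746 CPM on vehicle and at 1637, 1385 and 1400 CPM on PFOA. The PFOA libraries were close together and all above vehicle, where vehicle 137 was lowest. The log2 fold change was 1.55 (SE 0.37) and 1.20 without vehicle 137, with adjusted p-values of 0.434 (edgeR), 0.139 (DESeq2) and 0.702 (DESeq2 without vehicle 137), and Scd1 was the 1 member called by DESeq2, with 0 called without vehicle 137.

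Fasn, fatty acid synthase, was at 187, 338 and 391 CPM on vehicle and at 712.1, 566 and 526 CPM on PFOA, a log2 fold change of 0.98 (SE 0.25). Its DESeq2 adjusted p was 0.121, but its fold was under 2. Acaca, the carboxylase that makes malonyl-CoA, was at 50.9, 56.0 and 59.0 CPM and at 103, 82.9 and 76.9 CPM. Srebf1, the transcription factor that drives these enzymes, was at 48.6, 58.4 and 54.6 CPM on vehicle and at 77.3, 74.7 and 67.6 CPM on PFOA (log2 fold change 0.44, SE 0.12). In all 3 genes the groups did not overlap. The citrate lyase Acly and the desaturase Fads1 were picked at 0.50 and 0.47 on the log2 scale, and Thrsp, a lipogenic regulator, at 1.59, with PFOA 52 at 28.3 CPM and the other PFOA libraries at 7.88 and 6.13 CPM.

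Targets of LXR, the sterol receptor that induces Srebf1 and cholesterol export, gave 8 of 17 genes (47.1%) picked higher and 0 lower, at a median of 0.55, and 6 without vehicle 137 at a median of 0.37. Scd1 and Srebf1 belong to both lists. Mylip, a ubiquitin ligase that lowers lipoprotein uptake, was at 25.6, 45.2 and 36.3 CPM on vehicle and at 55.0, 84.6 and 62.5 CPM on PFOA. Apoe was at 131, 305 and 282 CPM and at 422, 395 and 416 CPM. The cholesterol exporter Abca1 had a log2 fold change of 0.65 and lipoprotein lipase (Lpl) of 0.88. The groups of these genes did not overlap, and vehicle 137 was the lowest library in each. Of 25 cholesterol synthesis and uptake genes 1 (4%) was picked. By their median log2 fold change the LXR targets were also higher on PFOA in the other genotypes, at 0.47 in WT and 0.37 in KI.

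Genes that PPARα itself controls showed no such pattern. Of 30 listed targets 25 were tested and 0 were picked in either direction, at a median log2 fold change of 0.16, and without vehicle 137 only Cpt1b was picked, higher on PFOA, with vehicle 145 and 149 at 0 CPM and vehicle 137 at 3.46 CPM. Pdk4, a kinase that shuts off glucose oxidation, was at 20.5, 12.7 and 13.4 CPM on vehicle and at 28.7, 22.4 and 17.8 CPM on PFOA. Angptl4, an inhibitor of lipoprotein lipase, was at 21.2, 25.6 and 36.8 CPM and at 44.4, 46.0 and 26.6 CPM. For both genes the groups overlapped. The acyl-CoA thioesterase Acot1 was at 13.4, 14.9 and 21.1 CPM on vehicle and 13.2, 15.5 and 12.7 CPM on PFOA. Cpt1a, the gate of fatty acids into mitochondria, and Plin2, a lipid droplet coat protein, had log2 fold changes of 0.08 and 0.15 with SEs of 0.23 and 0.29. Both crossed 0 under at least 1 other setting, so no direction can be given.

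Other receptors of foreign compounds gave little. Of 20 targets of CAR and PXR 0 were picked higher and 3 (15%) lower (Abcc2, Cyp2b19 and Ugt1a1), each with its highest value in vehicle 137, and 0 were picked without that library. Of 24 NRF2 targets 2 were picked higher (the pentose phosphate enzymes Taldo1 and Tkt) and 1 lower (the cystine carrier Slc7a11), and of 10 AhR targets 1 was picked higher (Tiparp) and 1 lower (Ugt1a6a). Of 48 nuclear genes of the respiratory chain 46 had a log2 fold change above 0, at a median of 0.33, and 5 (10.4%) were picked higher. Without vehicle 137 the median was 0.16 and 1 was picked.

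**Figure D4:**
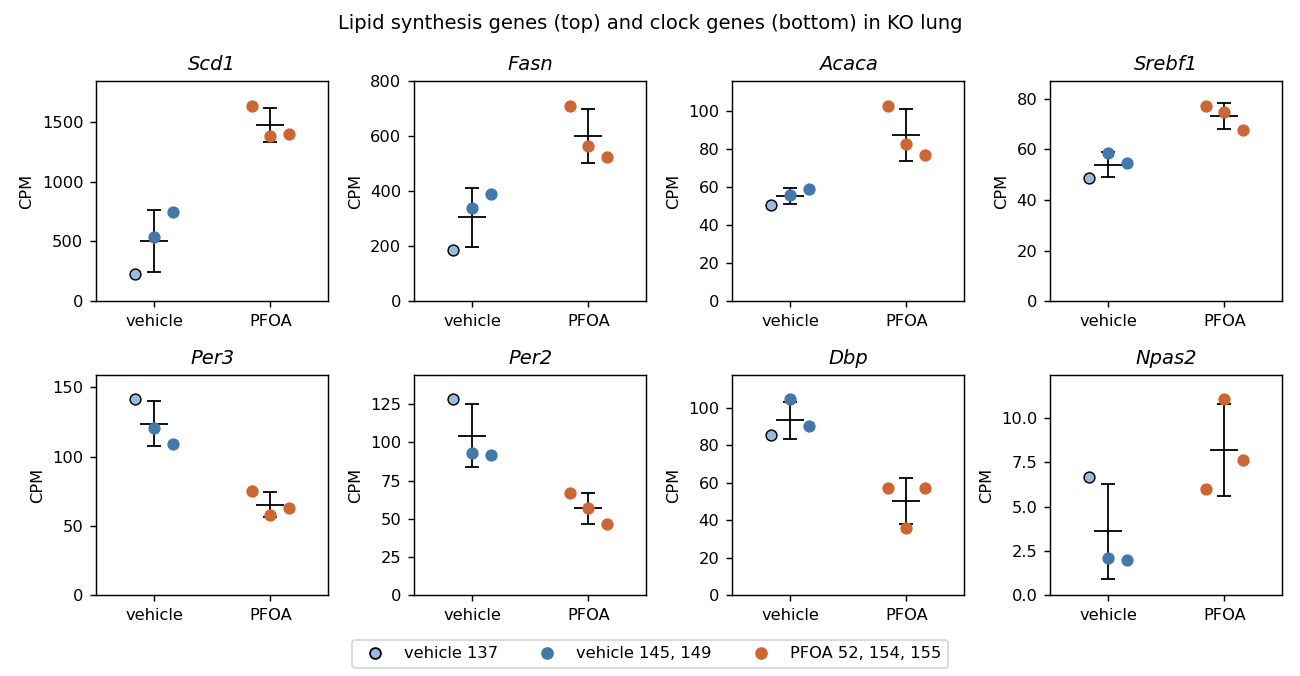
Points give the CPM of the 6 KO libraries for 4 lipid genes (Scd1, Fasn, Acaca, Srebf1) and 4 clock genes (Per3, Per2, Dbp, Npas2), and bars give the mean ± SD of each group (n = 3). Scd1 lies at 228 to 746 CPM on vehicle and 1385 to 1637 CPM on PFOA, Per3 at 109 to 141 and 57.7 to 75.2 CPM, and Npas2 overlaps between groups.

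Clock genes were the list with the most genes lower on PFOA relative to its size. In the circadian clock the activators Arntl and Clock or Npas2 bind E-boxes (CACGTG) of the Per, Cry and Nr1d genes, whose products repress them in turn, while Dbp, Tef and Hlf act through D-boxes and ROR and REV-ERB proteins through AGGTCA elements, so the 2 arms peak at different hours of the day. Of 20 clock genes 7 (35%) were picked lower, where 6.06% of all genes were, and 2 (10%) higher, and the median log2 fold change was -0.33 both with and without vehicle 137. Without vehicle 137 there were 6 lower, where 1.39% of all genes were, and 3 higher (Arntl, Npas2 and Per1). The number lower ranged from 3 to 8 when 1 KO library was left out. The hour at which each lung was taken is not given, and its part in these values was not tested.

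Promoters of 4 of these genes are shown for the elements named above, as RefSeq gives them on GRCm38.p6 (the same assembly as mm10), from 250 bases before to 50 bases after a transcription start, 5′ to 3′ on the gene's strand, with the motif in capitals. Ciart (chr3:95882179-95882478, minus strand) and Bhlhe41 (chr6:145865371-145865670, minus strand) were picked lower and hold CACGTG. Per3 (chr4:151044616-151044915, minus strand) was picked lower and holds TTATGTAA, a D-box. Arntl (chr7:113207261-113207560, plus strand) was picked higher and holds AGGTCA, whereas its other entry (chr7:113207215-113207514) does not.
Ciart: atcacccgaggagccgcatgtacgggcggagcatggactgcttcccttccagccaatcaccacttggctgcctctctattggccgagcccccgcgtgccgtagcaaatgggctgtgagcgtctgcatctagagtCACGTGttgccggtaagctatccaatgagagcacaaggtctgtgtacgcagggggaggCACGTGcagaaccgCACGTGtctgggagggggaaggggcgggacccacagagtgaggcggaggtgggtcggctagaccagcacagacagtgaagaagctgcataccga
Bhlhe41: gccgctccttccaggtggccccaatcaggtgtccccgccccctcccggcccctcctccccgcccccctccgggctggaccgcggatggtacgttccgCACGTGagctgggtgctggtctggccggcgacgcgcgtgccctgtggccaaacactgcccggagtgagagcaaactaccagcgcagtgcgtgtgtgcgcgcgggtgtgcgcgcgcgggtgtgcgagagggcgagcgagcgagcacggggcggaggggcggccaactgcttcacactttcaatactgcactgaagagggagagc
Per3: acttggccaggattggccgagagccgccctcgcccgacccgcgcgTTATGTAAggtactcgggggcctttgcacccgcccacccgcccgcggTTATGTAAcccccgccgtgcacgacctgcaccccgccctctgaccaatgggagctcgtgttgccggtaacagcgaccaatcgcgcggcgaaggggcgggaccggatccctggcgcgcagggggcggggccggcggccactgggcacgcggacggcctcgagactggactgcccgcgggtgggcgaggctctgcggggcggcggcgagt
Arntl: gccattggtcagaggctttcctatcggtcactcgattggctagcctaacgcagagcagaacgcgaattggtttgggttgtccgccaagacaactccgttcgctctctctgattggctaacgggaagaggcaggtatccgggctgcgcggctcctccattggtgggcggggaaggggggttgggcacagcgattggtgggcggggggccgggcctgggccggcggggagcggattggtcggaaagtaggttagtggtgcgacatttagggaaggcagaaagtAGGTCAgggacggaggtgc
Both strands were searched, and no matches overlap in the sequences shown. CACGTG and TTACGTAA read the same on either strand. CACGTG was found in 7.15% of 32851 RefSeq promoters, TTATGTAA or TTACGTAA in 1.06% and AGGTCA in 16.3%. Of the 5 genes picked lower that had a promoter entry 3 held CACGTG (Ciart with 3 copies, Bhlhe41 and Tef), and of the 10 clock genes that were not picked 2 did (Cry1 and Per1). AGGTCA was found in 0 of those 5 genes, in 1 of the 2 picked higher and in 4 of the 10 not picked, and a D-box in Per3 alone of the 17 clock genes with an entry. A match describes these letters in this window and is no evidence of binding.

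Per3, a repressor of the clock (chr4:151003652-151044665, mm10, minus strand), was at 141, 121 and 109 CPM on vehicle and at 75.2, 57.7 and 63.2 CPM on PFOA. Per2, of the same arm, was at 128, 93.2 and 91.9 CPM and at 67.0, 57.3 and 46.4 CPM, and Dbp, an output factor of the clock, at 85.5, 105 and 90.2 CPM and at 57.5, 36.1 and 57.4 CPM. In all 3 genes every PFOA library was below every vehicle library. The log2 fold changes were -0.92 (SE 0.27), -0.87 (SE 0.29) and -0.90 (SE 0.35), and -0.82, -0.70 and -0.96 without vehicle 137. Ciart, a repressor of the activator arm, was at 20.96, 9.43 and 9.92 CPM on vehicle and at 8.50, 8.198 and 4.93 CPM on PFOA. Its difference leaned on vehicle 137, since its log2 fold change went from -0.86 to -0.41 without it. Bhlhe41, another E-box repressor, and the output factor Tef had -0.57 and -0.46.

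In the activator arm Arntl was at 11.7, 8.30 and 8.41 CPM on vehicle and at 13.02, 20.4 and 13.5 CPM on PFOA, with groups that did not overlap and a log2 fold change of 0.74 (SE 0.35). Npas2 was at 6.68, 2.11 and 2.01 CPM and at 5.98, 11.1 and 7.63 CPM, so that vehicle 137 lay inside the PFOA range, and its log2 fold change was 1.27, or 1.996 without vehicle 137. Not all repressors went down. Per1 was at 132, 70.4 and 77.9 CPM on vehicle and at 119, 135 and 84.8 CPM on PFOA, and Nr1d1, which encodes REV-ERBα, at 140, 163 and 178 CPM and at 159, 125 and 149 CPM, both with overlap. None of the 20 genes was called by edgeR or DESeq2, and the smallest DESeq2 adjusted p among those named was 0.191 for Per3, whose fold was under 2.

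Among the 12 protein-coding genes ranked highest for lower levels on PFOA, which were required to average at least 1 CPM without overlap of the groups, the log2 fold changes ranged from -1.47 for Nwd2 to -0.46 for Zbtb46. Nwd2, an NTPase gene of little known function, was at 7.14, 5.63 and 5.90 CPM on vehicle and at 1.73, 2.13 and 2.84 CPM on PFOA, and it changed by DESeq2 (adjusted p = 0.157, and 0.708 without vehicle 137). Hspa12b, a heat shock protein of endothelium, was at 65.4, 74.7 and 82.4 CPM and at 63.2, 43.8 and 38.0 CPM, with PFOA 52 just below vehicle 137. Zbtb46, a transcription factor of dendritic cells and endothelium, was at 53.7, 64.4 and 58.3 CPM and at 48.8, 39.1 and 40.2 CPM. Taf9, a subunit of the general transcription factor TFIID, was at 6.22, 6.61 and 6.66 CPM on vehicle and at 3.06, 2.66 and 2.99 CPM on PFOA. The values of the vehicle libraries lay close together in Taf9, and so did those of the PFOA libraries. Taf9 shares exon sequence on its strand with Ak6, so reads of these genes cannot be told apart with certainty. The remaining genes were Il1a above, Lin9, of the complex that times cell cycle genes, Pigu, of GPI anchor synthesis, Cenpt, of the kinetochore, the amino acid carrier Slc6a15, the zinc finger gene Zfp868, 2700081O15Rik, and Gm17334, which overlaps Irf1 on the other strand.

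Some other genes called lower by DESeq2 were near 0 in the PFOA libraries and low in vehicle 145 and 149. The vomeronasal receptor gene Vmn2r31 was at 24.0, 1.55 and 0.502 CPM on vehicle and at 0.133, 0.213 and 0.449 CPM on PFOA, and Vmn2r120 at 7.60, 0.844 and 0.753 CPM and at 0, 0.106 and 0 CPM. A530032D15Rik, a gene of a repeated family on chromosome 1, was at 35.0, 1.69 and 2.64 CPM and at 0.930, 1.49 and 2.09 CPM. Vehicle 137 was by far the highest library in all 3. Gm43055, a long intergenic noncoding RNA that was named after its values were seen, was at 14.7, 9.43 and 8.29 CPM in the 3 vehicle libraries and at 0.266, 0.532 and 0.748 CPM on PFOA, the first of which is under 3 counts, with a log2 fold change of -4.35 (SE 0.98) and -4.08 without vehicle 137. The same gene ranged from 0 to 9.99 CPM over the 11 libraries of the other genotypes and shares exon sequence on its strand with Ythdc1 and Gm16579, so reads of these genes cannot be told apart with certainty.

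Markers of tissue that clings to a dissected lung varied between single KO mice. The 12 adipocyte genes summed to 189, 187 and 160 CPM on vehicle and to 411, 217 and 222 CPM on PFOA, with a median log2 fold change of 1.28 and 4 (33.3%) picked higher (Adipoq, Ucp1, Cfd and Pnpla2). Adipoq, the fat cell hormone adiponectin, was at 0.691, 0.141 and 0.126 CPM on vehicle and at 8.37, 0.426 and 3.74 CPM on PFOA, and the brown fat gene Ucp1 at 1.61, 0.141 and 0 CPM and at 25.1, 2.02 and 0.449 CPM. PFOA 52 was the highest library in both, followed by PFOA 155 for Adipoq and by PFOA 154 for Ucp1, and without PFOA 52 the count picked was 0. Scd1 and other lipid synthesis genes are also active in fat cells, and the part of fat tissue in their values was not tested. The 21 cardiac muscle genes summed to 4655, 818 and 868 CPM on vehicle and to 3574, 912 and 3270 CPM on PFOA, which divided the libraries within each group, and 0 were picked, or 2 without vehicle 137.

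Among lung cells proper few markers were picked. Of 19 alveolar type 2 cell genes 4 (21.1%) were higher: Mfsd2a, Fasn, Chil1 and Sftpd. The surfactant protein gene Sftpc was at 677, 2709 and 3112 CPM on vehicle and at 3005, 2702 and 3135 CPM on PFOA, a difference that lay in vehicle 137, and without it the log2 fold change was 0.02. The whole type 2 list summed to 4297 CPM in vehicle 137 and to 10169 and 11876 CPM in the other vehicle libraries, against 12036 to 12172 CPM on PFOA. Of 28 ciliated cell genes, 19 club cell genes, 15 alveolar type 1 cell genes and 18 smooth muscle genes 0 were picked in either direction. Without vehicle 137 4 of the 19 club cell genes (Scgb3a1, Bpifa1, Bpifb1 and Krt15) were picked higher, where 2.7% of all genes were, and 1 smooth muscle gene, Hhip, lower. Scgb3a1, a secretoglobin of airway secretory cells, was at 70.5, 0.844 and 1.63 CPM on vehicle and at 45.97, 0.852 and 17.3 CPM on PFOA, so vehicle 137, PFOA 52 and PFOA 155 were high and the other 3 low. The endothelial list gave 1 of 24 (4.17%), Klf2, and the list of fibroblast and collagen genes 1 of 29 (3.45%), Fbn1, both near the background of 3.74%. Of 38 cell cycle genes 1 was picked higher, the replication helicase subunit Mcm4, and 2 lower, Ccne2 and Anln, against 0 and 1 without vehicle 137.

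The KO difference was set against those in WT and KI lung by a test of the difference itself. edgeR called 0 genes (0%) for KO minus WT and 0 (0%) for KO minus KI, with 2010 (7.46%) and 1460 (5.42%) at an unadjusted p under 0.05, and DESeq2 called 3 (0.0111%) in each, Bpifa1, Gm38009 and Synb with the lower KO effect against WT and Klf2, Gm17829 and Rpl15-ps6 with the higher KO effect against KI. Some of these calls rest on values at or near 0. Rpl15-ps6 was at 0 to 1.59 CPM on KI vehicle and at 0 CPM in all KI PFOA libraries. Synb was at 0 CPM in both WT vehicle libraries. In KO vehicle 137, 145 and 149 Synb was at 5.76, 0.563 and 1.88 CPM. The authors wrote that Bpifa1 passed their WT thresholds as an artifact of few vehicle lungs. The clearest of these calls was Klf2, a factor that keeps endothelium and naive T cells quiescent (chr8:72319033-72321656, mm10, plus strand). It was at 52.5, 57.3 and 49.9 CPM in KO vehicle and at 102, 70.9 and 110 CPM in KO PFOA. In KI it was at 137, 149 and 138 CPM on vehicle and at 72.5, 83.8 and 74.5 CPM on PFOA. KO PFOA libraries were above KO vehicle, KI PFOA libraries were below KI vehicle, and the vehicle groups of the 2 genotypes did not overlap whereas the PFOA groups did. The effects of 0.82 and -0.88 on the log2 scale differed by 1.70 (SE 0.28), with an adjusted p of 0.249 (edgeR, not called) and 0.00062 (DESeq2, called).

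Leukocyte lists were read the same way. For KO minus KI, where 1.92% of all genes were picked with the KO effect higher, the count was 10 of 25 B and plasma cell genes, 8 of 36 NK and T cell genes, 7 of 26 monocyte genes, 4 of 10 Schlafen genes and 4 of 14 MS4A genes, with 0 of each in the other direction, where 3.5% of all genes were picked. The other leukocyte lists gave fewer, with 1 of 18 alveolar macrophage genes higher and 0 lower, and 0 of 17 neutrophil genes higher and 1 lower. The B and plasma cell list had a median log2 fold change of -0.38 in KI, where the vehicle libraries were far apart. Ighm was at 141, 14.5 and 62.3 CPM in KI vehicle 102, 116 and 135. In KI PFOA 57, 80 and 139 it was at 29.7, 28.4 and 40.2 CPM. The part of single KI vehicle libraries in these counts was not tested. The median log2 fold change of the NK and T cell list was 0.97 in KO, 1.13 in WT and 0.18 in KI. For KO minus WT 0 of the NK and T cell genes had a higher KO effect and 2 a lower one, where 4.89% of all genes had. The difference in Scd1 effect was 1.11 (SE 0.54) against WT and 0.82 (SE 0.52) against KI, with adjusted p-values of 0.669 and 0.928 in edgeR. Fatty acid synthesis genes had a median of 0.17 in both WT and KI beside 0.34 in KO. Of these 24 genes 2 were picked with the higher KO effect against WT, where 2.56% of all genes were, and 0 against KI. The clock list had medians of 0.02 in WT and -0.03 in KI, and of its 20 genes 1 was picked in each direction against WT and 1, with the lower KO effect, against KI. Over all genes the shares were 2.56% higher and 4.89% lower against WT and 3.5% lower against KI, so the clock counts are near background.

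Airway genes separated KO from WT in the other way. Of 28 ciliated cell genes 7 and of 19 club cell genes 5 were picked with the KO effect above the WT effect, where 2.56% of all genes were, and the ciliated list had a median log2 fold change of -1.13 in WT and -0.36 in KO, or -0.09 in KO without vehicle 137. Several members of both lists, such as Foxj1, Ak7, Scgb1a1 and Cyp2f2, were already reported as lower on PFOA in these same WT samples. These counts and the WT median are therefore not independent evidence of a difference between the genotypes. Sex differed between these groups, as the KO mice were all female and WT and KI groups held both sexes, and with 2 WT vehicle libraries, 1 of which (WT vehicle 122) had a protein-coding share of 65.3%, the WT effect is the least certain of the 3. Neither point's part in these counts was tested for the lists.

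**Figure D5:**
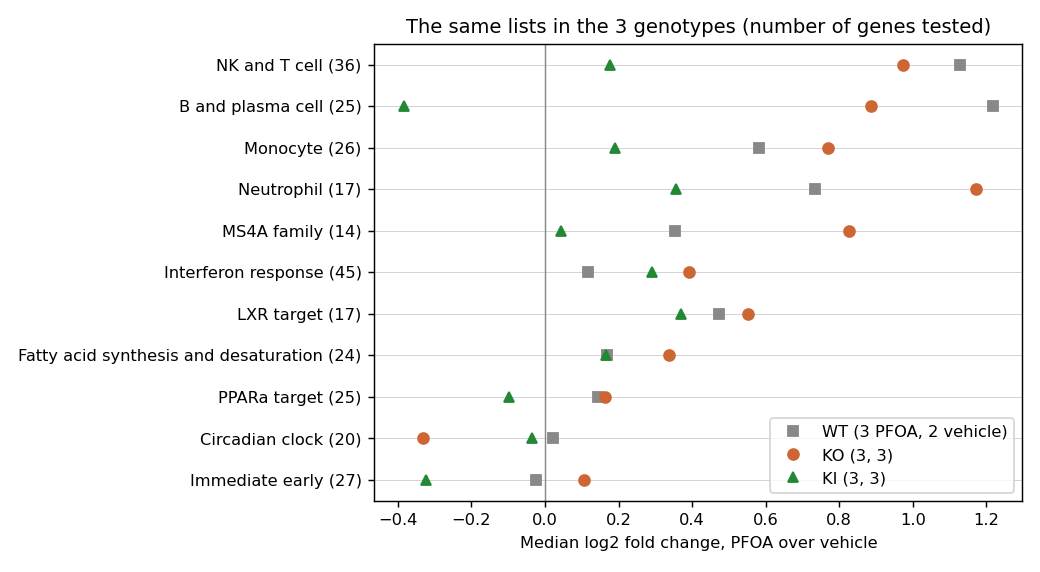
Points give the median log2 fold change (PFOA minus vehicle) of the genes of 11 lists in WT, KO and KI lung, each against its own vehicle libraries. NK and T cell genes lie at 1.13, 0.97 and 0.18, and the circadian clock list at 0.02, -0.33 and -0.03.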

How the data were processed

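Lung RNA of 17 mice in 6 groups was sequenced, 6 of them KO. The authors prepared stranded total RNA libraries from 6 ng RNA (a low-input kit), trimmed the reads, aligned them to mm10 with STAR 2.6 in Partek Flow, quantified them by expectation-maximization and summed them to genes, and tested with DESeq2 v3.5. They deposited the estimated counts without normalization, and 31.3% of the values were not whole. The annotation release and the use of strand in counting are not given in the sources used here, so antisense and overlapping genes are uncertain.

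Estimated counts were rounded to whole numbers. The table held 31245 genes, and the 26946 whose counts summed to 20 or more over the 17 libraries were kept. edgeR 4.0.16 (R 4.3.3) with TMM factors and quasi-likelihood tests fitted the 6 groups together, with Benjamini-Hochberg adjustment over all tested genes. A gene was called when its fold exceeded 2 and its adjusted p was below 0.2. DESeq2 1.42.0 (no independent filtering, no Cook's cutoff) was an alternative, among 31 settings. CPM values used library totals scaled by the TMM factors. Library shares and settings based on protein-coding genes used the biotypes deposited with the counts. Gene positions and the other protein-coding labels came from GENCODE M21 (96.7% of names found once, 99.4% of these at the same start). Labels of the remaining names were the deposited ones. Every pair of KO libraries of a group differed by more than sampling noise. The scripts were tested on simulated data. Tables were made in Python 3.11.15 (pandas 2.3.3) and figures with matplotlib 3.10.9.

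Genes were named by this rule: the 12 higher and 12 lower protein-coding genes with a mean of at least 1 CPM, groups that do not overlap and the smallest of the larger p with and without vehicle 137, up to 5 members per list at an unadjusted p under 0.05, Ppara, Gas7, Ms4a6c, Nlrp3 and Slfn1, and the 5 higher and 5 lower protein-coding genes with the smallest DESeq2 adjusted p among its calls. All other genes were picked for naming with their values in view. The samples and gene lists were chosen with earlier results of these data known. Some genes are not reported here. The floor of 3 counts covers counting error only.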

Additional observations from a re-analysis of the deposited data

How the results depend on the processing

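The count of 0 genes called for PFOA against vehicle in KO became 68 with DESeq2 on the same genes, 72 with DESeq2's default filters, 11 with DESeq2 without vehicle 137, 1 in a fit of the 6 KO libraries alone (Gm43055), 2 with the column code (Gm43055 and H2ac19) and 3 with the protein-coding share (Scd1, Slfn1 and Tlr13) as a covariate. Leaving out 1 library gave 0 to 9, the 9 without KI vehicle 116 (Adgre4, Bin2, Gimap3, Gm9025, Ifi204, Itga4, Ms4a4b, Slfn1 and Tlr13). The count of 2639 genes at an unadjusted p under 0.05 became 867 with DESeq2 without vehicle 137, 1683 with filterByExpr, 1727 with protein-coding genes only and 1620 with the protein-coding share. It ranged from 1102 without vehicle 137 to 4020 without vehicle 149, and was 1720 without PFOA 52. Of those genes 67.2% were higher when the protein-coding share was a covariate, and 69.7% with DESeq2 without vehicle 137. For KO minus WT the count of 0 became 3 with DESeq2 under either filter, 2 with DESeq2 without vehicle 137 and 1 with the column code, and ranged from 0 to 178 over left-out libraries (178 without WT vehicle 107, which leaves 1 WT vehicle library that is assumed to vary like the other groups, and 1 without WT PFOA 65). For KO minus KI it became 3, 3 and 2 under the same DESeq2 settings and 1 each with no filter, the column code, the protein-coding share or robust estimation, and ranged from 0 to 7, the 7 without KI vehicle 116. The other settings left these counts at 0. Directions turned in 3 of the genes named here. The log2 fold change of Ppara was 0.043 (DESeq2 without vehicle 137) and 0.013 (protein-coding share) and ranged from -0.13 to 0.056 over left-out libraries, above 0 without vehicle 137 or PFOA 155. Cpt1a had -0.20, -0.075 and, with upper-quartile factors, -0.0026, and Plin2 -0.22 and -0.054 under the settings in the same order, and they ranged from -0.18 to 0.28 and from -0.21 to 0.39 over left-out libraries, below 0 without vehicle 137. Apart from the smaller number of genes or libraries that a setting leaves, the cause was not tested. No paired analysis was possible because the titles give animal numbers that no 2 groups share. The lower depth of vehicle 137, the column code and the number of libraries limit all values.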

Other observations

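Some genes with higher values on PFOA in KO lung lay outside the groups described above, and they were chosen after their values were seen. Adgre4, an adhesion receptor gene of monocytes, was at 0.691, 3.10 and 2.64 CPM in vehicle 137, 145 and 149 and at 10.8, 6.07 and 13.3 CPM in PFOA 52, 154 and 155, and was called by DESeq2 (adjusted p = 0.121). Gimap3, a GTPase gene of lymphocytes, was at 12.7, 15.3 and 12.4 CPM and at 29.6, 25.9 and 35.4 CPM (DESeq2 adjusted p = 0.159). Bin2, a membrane-bending protein gene of blood cells, was at 16.8, 16.04 and 22.2 CPM and at 37.9, 36.9 and 42.8 CPM (DESeq2 adjusted p = 0.182). In all 3 genes the groups did not overlap, and without vehicle 137 their log2 fold changes were 1.80, 1.12 and 1.03 and their DESeq2 adjusted p-values 0.495, 0.645 and 0.708, so that none was called.

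Of 27 immediate early genes 2 were picked, in opposite directions, and without vehicle 137 there were 3 higher and 1 lower. Btg2, an antiproliferative gene, was at 71.9, 84.1 and 73.8 CPM on vehicle and at 96.7, 103 and 107 CPM on PFOA. Nr4a3, an orphan nuclear receptor gene, was at 34.1, 46.7 and 73.6 CPM on vehicle and at 20.9, 19.7 and 27.1 CPM on PFOA. Neither gene's groups overlapped, and neither was called by edgeR or DESeq2, with DESeq2 adjusted p-values of 0.410 and 0.543. Where 1.92% of all genes were picked with the KO effect above the KI effect, 7 of the 27 immediate early genes were. The list median log2 fold change was 0.11 in KO and -0.32 in KI. KI vehicle 116 was above KI vehicle 102 and 135 in Nr4a3 (91.9 against 13.8 and 23.6 CPM) and Btg2 (151 against 98.9 and 114 CPM). The part of that library in the count was not tested.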
